A study of Rattus norvegicus and Mus musculus with 9 samples.

Results

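The matrix metalloproteases (MMPs), the ADAMTS proteases with the related ADAMTS-like proteins, and the tissue inhibitors of metalloproteases (TIMPs) were examined in mouse embryonic stem (ES) cells, rat ES cells and rat embryonic fibroblasts. Members were all genes whose platform symbol begins with Adamts, or with Mmp or Timp and a number, from probe sets that list a single symbol. A symbol with several probe sets was represented by the one with the highest mean over the arrays of its table. The rule gave 39 of 14506 named genes on the rat array and 49 of 19938 on the mouse array, and 36 symbols were on both. Adamts2, Mmp1 and Mmp15 were named on the rat array alone, and 13 members on the mouse array alone.

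Total RNA from cultured cells was hybridised to one-colour microarrays, 3 arrays for each of the 3 groups. The mouse ES cells were of strain C57/BL6, grown with leukaemia inhibitory factor in GMEM with 10% fetal bovine serum and separated from feeder cells before RNA was taken. The rat ES cells, of strain DA, were grown in a medium named 3I, and the rat embryonic fibroblasts, also of strain DA, in GMEM with 10% fetal bovine serum. The labels name no transgene, deletion, line, passage or embryonic age, and leave it unsaid whether replicate arrays are separate cultures. The p-values therefore measure the spread between arrays alone, which may be technical. Medium and cell type change together between the rat groups and cannot be told apart.

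MMPs are zinc proteases, secreted or held at the cell surface, that cut collagens, proteoglycans and other proteins of the extracellular matrix. ADAMTS proteases are secreted enzymes that trim procollagens and cut proteoglycans such as versican and aggrecan, whereas ADAMTS-like proteins have the accessory domains without the protease. TIMPs bind the active site of MMPs, and Timp3 also inhibits several ADAM and ADAMTS proteases. Fibroblasts are a classical source of many of these proteins, and ES cells are grown as compact colonies.

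The deposited values are log2 signals, and array medians lay between 5.705 and 5.737 on the rat arrays and between 4.748 and 4.773 on the mouse arrays. The labelled cell types were checked against marker genes. All 7 ES cell markers measured on the rat array were higher in rat ES cells, Pou5f1 by 7.04 and Nanog by 6.73 on the log2 scale, and 0 of 9 were below the array medians in mouse ES cells. Of 12 fibroblast markers, 10 were lower in rat ES cells than in rat fibroblasts. Their summed linear signal was 8236, 8938 and 9786 on rat ES arrays 1, 2 and 3, against 67423 to 70813 on fibroblast arrays. Fn1, which was not called, was the brightest of them in rat ES cells, at log2 signals of 12.56, 12.58 and 12.61. It made up the largest part of the rat ES sum. Of the 12 markers, 3 were below the array medians in mouse ES cells and likewise 3 in rat ES cells. The share of the fibroblast marker signal in the members' levels was not tested. In RNA from whole cultures, fewer cells of a type and less RNA per cell cannot be told apart. Markers of other lineages went both ways in rat ES cells. Higher were 2 of 6 trophoblast, 2 of 9 primitive endoderm and 2 of 6 endothelial genes, and lower were 1, 3 and 1. Those higher include Cdx2 by 3.80, Lama1 by 4.52 and Tie1 by 3.00. Of all rat genes 10.6% were called higher and 10.1% lower.

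Of the 39 members, 17 were lower in rat ES cells than in rat fibroblasts and 0 were higher. A call required a change of 2-fold or more together with a limma p under 0.05 after Benjamini-Hochberg adjustment over all 14506 genes. The same rule called 10.1% of all rat genes lower and 10.6% higher, so the members' share of 43.6% lower lay above the first and their share of higher calls below the second. Without the fold threshold, limma called 24 members lower and 1 higher, against 25.5% and 30.9% of all genes, and at an unadjusted p under 0.05 there were 2 members higher. The groups did not overlap for 26 of 39 members, against 61.5% of all genes. The median log2 difference, rat ES cells minus fibroblasts, was -0.71 over the 39 members, with a range from -5.55 to 0.27, and -0.0007 over all rat genes. By family, 7 of 21 MMPs, 6 of 11 ADAMTS proteases, 2 of 3 ADAMTS-like genes and 2 of 4 TIMPs were lower, with medians of -0.33, -1.48, -1.67 and -1.03.

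**Figure D1:**
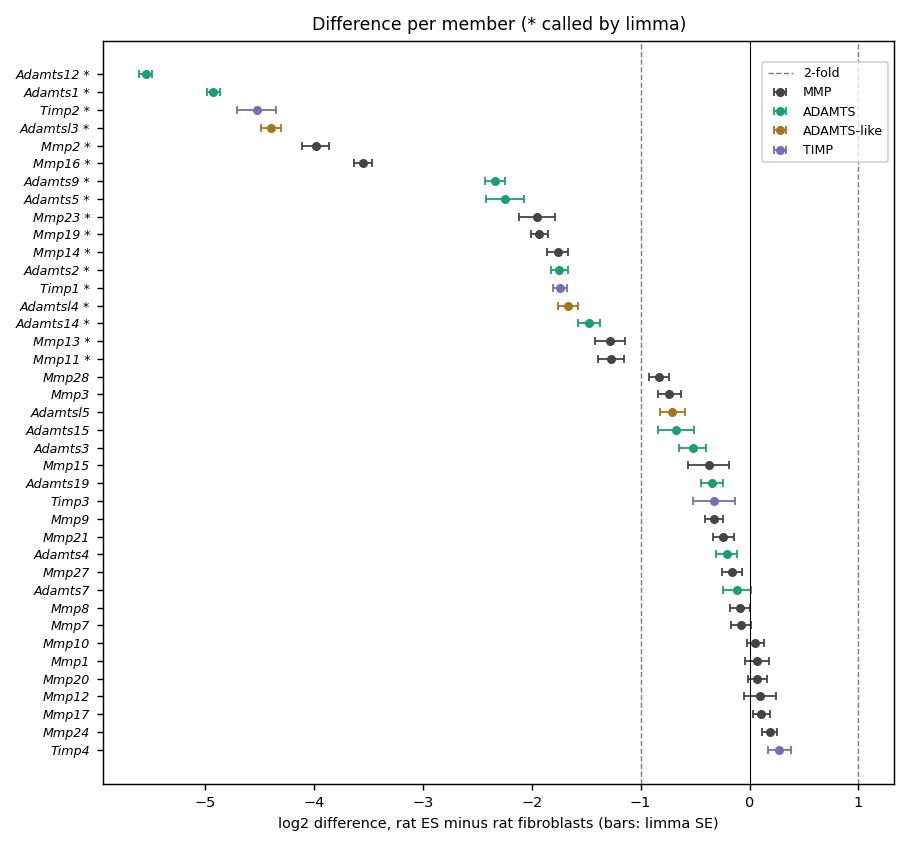
Log2 difference, rat ES cells minus rat fibroblasts, of each of the 39 members, ordered by size and coloured by family, with bars of 1 SE from limma, an asterisk for called members and dashed lines at 2-fold. The 17 called members all lie on the negative side, from -5.55 for Adamts12 to -1.27 for Mmp11.

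Among the inhibitors, Timp2 and Timp1 fell and Timp3 and Timp4 did not pass the test. Timp2, which inhibits MMPs and also serves as the adaptor through which Mmp14 activates the Mmp2 precursor, had log2 signals of 6.31, 7.05 and 7.0 in rat ES cells, against 11.34, 11.28 and 11.30 in rat fibroblasts. The groups did not overlap, and rat ES array 1 was the lowest of all. The log2 difference of Timp2 was -4.53 (SE 0.18, limma adjusted p = 1.29e-07). In the rat annotation Timp2 overlaps Cep295nl, which had a difference of -0.77 (limma adjusted p = 7.73e-04) and missed the fold threshold. How far that overlap enters the Timp2 signal was not tested.

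Timp1, a secreted inhibitor of many MMPs, had log2 signals of 10.14, 9.98 and 10.09 in rat ES cells, against 11.82, 11.81 and 11.81 in rat fibroblasts. All 6 values were far above the array medians, and the groups did not overlap. Its difference was -1.74 (SE 0.068, limma adjusted p = 1.18e-07). In the rat annotation Timp1 lies inside the synaptic vesicle gene Syn1. Syn1 was 0.65 higher in rat ES cells on the log2 scale (limma adjusted p = 4.54e-05), which missed the fold threshold.

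Timp3, the inhibitor that stays bound to the matrix, had log2 signals of 7.36, 7.99 and 8.23 in rat ES cells, against 8.19, 8.17 and 8.21 in rat fibroblasts. The groups overlapped, because rat ES array 3 was above every fibroblast array. The difference was -0.33 (SE 0.19, limma adjusted p = 0.187), and the SD was 0.45 over the rat ES arrays against 0.021 over the fibroblast arrays. The difference of Timp3 was -0.08 (limma adjusted p = 0.50) without rat ES array 1 and -0.51 (limma adjusted p = 0.0357) without rat ES array 3, and its adjusted p was between 0.0357 and 0.50 over 13 alternatives. Timp4 had log2 signals of 5.52, 5.68 and 5.74 in rat ES cells, against 5.18, 5.40 and 5.54 in rat fibroblasts. These groups overlapped as well, near or below the array medians, with a difference of 0.27 (SE 0.11, limma adjusted p = 0.0565). The limma adjusted p of Timp4 was between 0.0184 and 0.176 over 12 alternatives, and under 0.05 in 4 of them. Timp3 lies inside Syn3 and Timp4 inside Syn2 in the annotation, and the strand that the arrays read is not given in the sources used here.

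**Figure D2:**
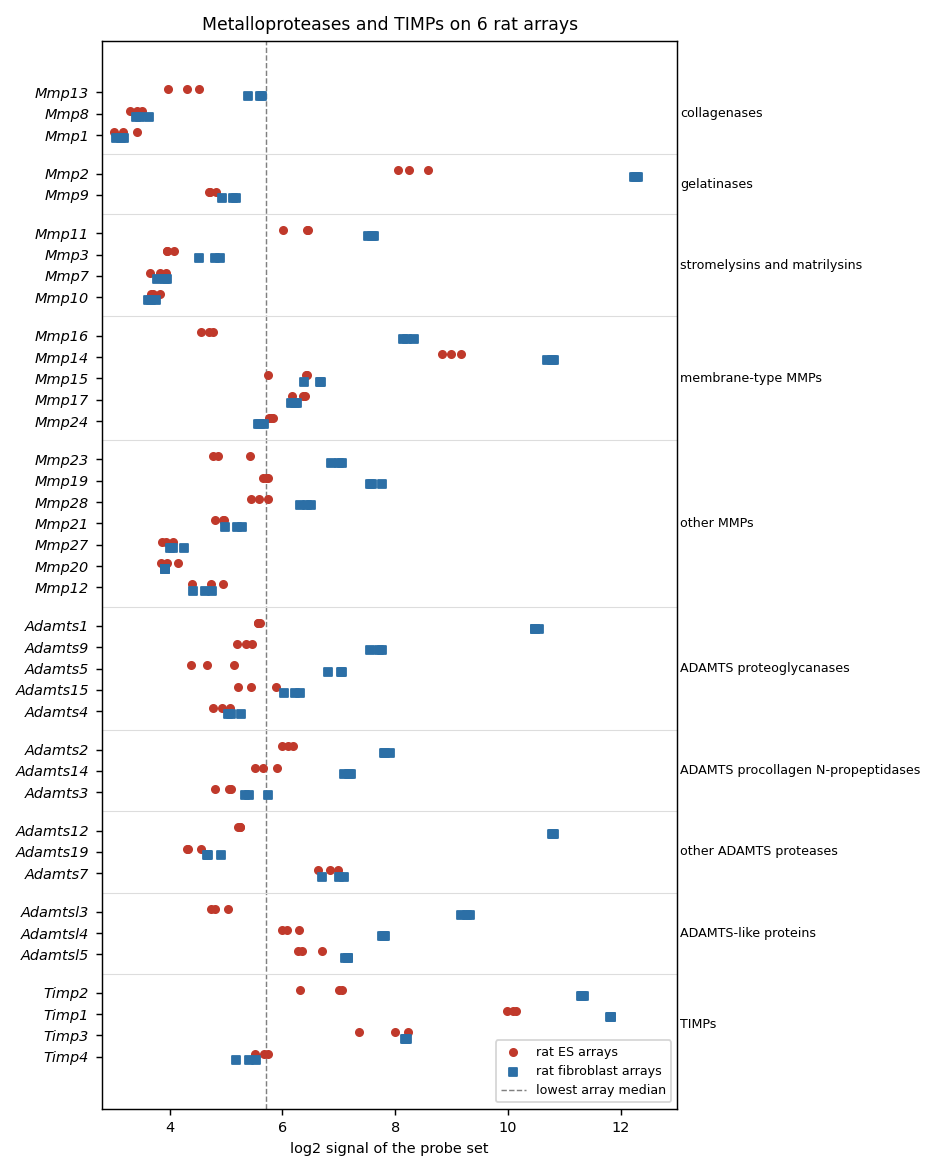
Deposited log2 signal of all 39 members, grouped by role, on 3 rat ES arrays (circles) and 3 rat fibroblast arrays (squares), with a dashed line at the lowest array median. The rat ES points of the 17 called members lie left of every fibroblast point, and those of Timp3 and Timp4 overlap with them.

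The proteases that act with Timp2 at the cell surface were also lower. Mmp14, a membrane-anchored collagenase that activates the Mmp2 precursor, had log2 signals of 8.84, 8.99 and 9.17 in rat ES cells, against 10.68, 10.82 and 10.78 in rat fibroblasts. It was well above the array medians in both groups without overlap, and fell by 1.76 (SE 0.094, limma adjusted p = 6.94e-07). Mmp2, the gelatinase that cuts denatured collagen and basement membrane collagen, had 8.05, 8.24 and 8.57 in rat ES cells, against 12.27, 12.23 and 12.31 in rat fibroblasts. Mmp2 also stayed above the array medians in rat ES cells, and fell by 3.98 (SE 0.12, limma adjusted p = 3.74e-08).

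Mmp16, another membrane-type MMP, had log2 signals of 4.70, 4.77 and 4.56 in rat ES cells, against 8.13, 8.33 and 8.21 in rat fibroblasts. Its rat ES values lay below the array medians, and the difference was -3.55 (SE 0.084, limma adjusted p = 9.40e-09). The other membrane-type MMPs were Mmp15, with a difference of -0.38 (adjusted p = 0.123), Mmp17, with 0.11 (adjusted p = 0.295), and Mmp24, with 0.18 (SE 0.066, adjusted p = 0.0428). Mmp24 was the 1 member with a positive difference at an adjusted p under 0.05, at 5.83, 5.80 and 5.75 in rat ES cells against 5.56, 5.60 and 5.67 in rat fibroblasts. That difference was far smaller than the 2-fold threshold, and its adjusted p, between 0.0252 and 0.136 over 12 alternatives, was under 0.05 in 4 of them. Mmp9, the other gelatinase, was below the array medians in both groups, with a difference of -0.33 (adjusted p = 0.0103).

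Of the remaining MMPs, 4 were called. Mmp23, which has a membrane anchor at its amino end, had log2 signals of 4.86, 4.77 and 5.42 in rat ES cells, against 6.85, 7.05 and 7.0 in rat fibroblasts. Mmp19, a secreted MMP of broad substrate range, had 5.66, 5.71 and 5.74 in rat ES cells, against 7.55, 7.77 and 7.59 in rat fibroblasts. Neither gene's groups overlapped, and the differences were -1.95 (SE 0.16, limma adjusted p = 9.96e-06) for Mmp23 and -1.93 (SE 0.079, limma adjusted p = 1.52e-07) for Mmp19.

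Mmp11, also called stromelysin-3, is activated inside the cell by furin. It had log2 signals of 6.44, 6.45 and 6.01 in rat ES cells, against 7.58, 7.51 and 7.63 in rat fibroblasts, and fell by 1.27 (SE 0.12, limma adjusted p = 2.39e-05). Its rat ES arrays lay below the fibroblast arrays, array 3 the furthest. Mmp11 overlaps the mitochondrial gene Chchd10 in the annotation, and Chchd10 was 3.67 higher in rat ES cells (limma adjusted p = 3.75e-08), the opposite direction. How far that overlap enters the Mmp11 signal was not tested.

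Mmp13, collagenase-3, had log2 signals of 4.30, 3.97 and 4.52 in rat ES cells, against 5.64, 5.60 and 5.39 in rat fibroblasts. The groups did not overlap, and all 6 values lay below the array medians. The difference was -1.28 (SE 0.14, limma adjusted p = 5.51e-05), and at this brightness its size is uncertain. In all, 13 members were below the array medians in both rat groups, Mmp13 among them. The same share over all rat genes was not counted.

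Mmp13 stands at one end of a run of 10 neighbouring MMP genes on rat chromosome 8, in the order Mmp13, Mmp12, Mmp1b, Mmp3, Mmp1, Mmp10, Mmp8, Mmp27, Mmp20 and Mmp7. It holds collagenases (Mmp1, Mmp8, Mmp13), stromelysins (Mmp3, Mmp10), the macrophage elastase Mmp12, the enamel protease Mmp20 and the matrilysin Mmp7. Of the 9 genes of this run on the rat array, Mmp13 alone was called. Mmp3, which cuts many matrix proteins, had a difference of -0.74 (SE 0.11, limma adjusted p = 3.23e-04), with 3.95, 4.09 and 3.96 in rat ES cells against 4.51, 4.81 and 4.90 in rat fibroblasts, and did not reach the fold threshold although its groups did not overlap. The other 7 had differences between -0.16 and 0.09. Of the markers of cells known for Mmp12 and Mmp8, all 8 macrophage genes lay below the array medians in rat ES cells and 7 of 8 in rat fibroblasts, and all 6 neutrophil genes did in both. Of the 8 macrophage genes Cd14 was the 1 called, and fell by 3.51 in rat ES cells, while Cd68 had a difference of 0.57, Cd163 of 0.26 and the other 5 between -0.15 and 0.19.

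The promoters of 6 genes in this run hold the letters of an activator protein 1 (AP-1) element, a motif long known from collagenase and stromelysin genes, and they are printed to show how closely their layout is shared. The windows are the last 100 bases before the RefSeq start in build GRCr8, all on the plus strand, with AP-1 (TGACTCA or TGAGTCA) and TATA box letters (TATAAA or TTTATA) in capitals. They lie at chr8:12782729-12782828 for Mmp13, chr8:12866552-12866651 for Mmp12, chr8:12925181-12925280 for Mmp3, chr8:12943353-12943452 for Mmp1, chr8:12974607-12974706 for Mmp10 and chr8:13132943-13133042 for Mmp7.
Mmp13: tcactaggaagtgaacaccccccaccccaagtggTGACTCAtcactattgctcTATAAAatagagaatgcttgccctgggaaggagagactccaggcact
Mmp12: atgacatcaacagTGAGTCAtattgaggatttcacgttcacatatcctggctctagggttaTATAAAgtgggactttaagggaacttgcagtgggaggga
Mmp3: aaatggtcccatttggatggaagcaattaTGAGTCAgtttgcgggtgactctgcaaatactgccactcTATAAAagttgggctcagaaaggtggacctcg
Mmp1: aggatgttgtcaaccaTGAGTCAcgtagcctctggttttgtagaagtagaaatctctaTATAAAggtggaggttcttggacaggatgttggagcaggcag
Mmp10: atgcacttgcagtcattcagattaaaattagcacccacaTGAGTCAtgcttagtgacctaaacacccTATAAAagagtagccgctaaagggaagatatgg
Mmp7: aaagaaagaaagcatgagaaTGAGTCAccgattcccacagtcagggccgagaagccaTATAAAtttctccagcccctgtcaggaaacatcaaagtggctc
The AP-1 letters began 61 to 87 bases before the start and the nearest TATA letters 32 to 47 bases before it. No AP-1 match overlapped a TATA match. Searched on both strands over 250 bases, AP-1 was in 4.05% and TATA in 12.9% of 33469 rat promoter windows in the RefSeq table. Among the 30 members with a window, 6 held AP-1 and 11 held TATA. Of the 6 genes with AP-1 letters, Mmp13 was called and the other 5 were not. One of these 5, Mmp3, had a difference of -0.74 that missed the fold threshold. All 6 genes lay below the array medians in both rat groups, so a missing call does not show that a gene is unchanged.

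**Figure D3:**
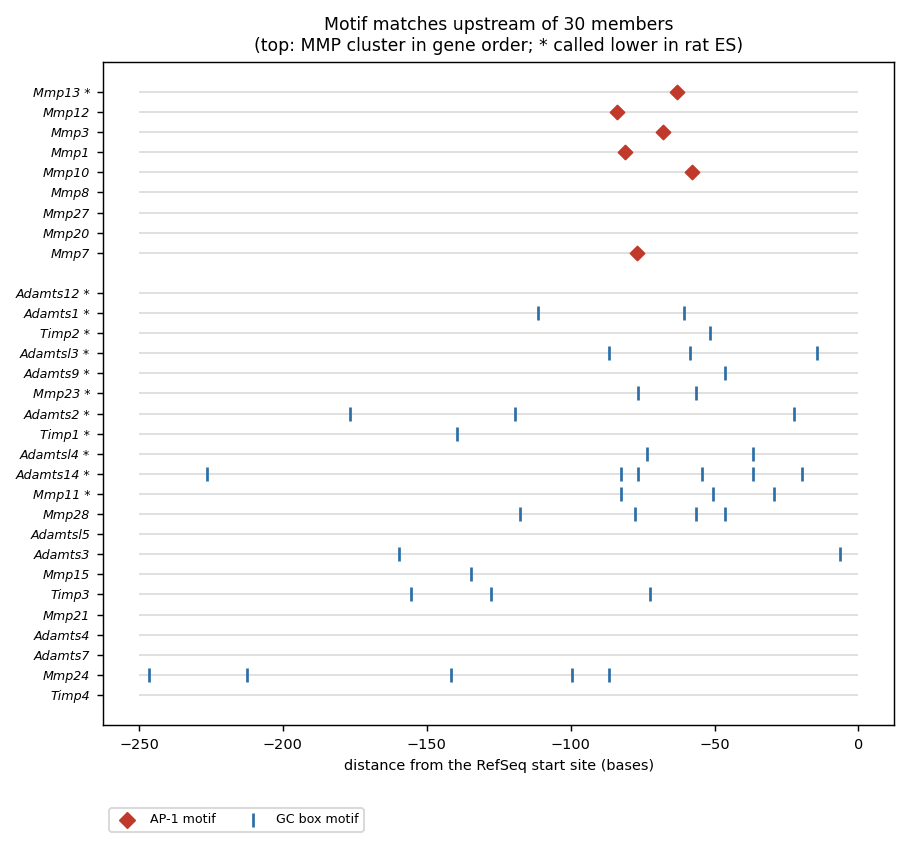
Positions of AP-1 (diamonds) and GC box (ticks) letters in the 250 bases before the RefSeq start of 30 members, in bases from the start, with the chromosome 8 run on top and an asterisk for called members. AP-1 letters are in 6 genes of the run, 1 of them called, and GC boxes are in 10 of 12 called members and 5 of 18 others.

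The ADAMTS proteases gave the 2 largest decreases of the 39 members. Adamts12, which cuts cartilage oligomeric matrix protein, had log2 signals of 5.26, 5.22 and 5.25 in rat ES cells, against 10.81, 10.79 and 10.77 in rat fibroblasts. The rat ES arrays were below the array medians and the fibroblast arrays far above them, a difference of -5.55 (SE 0.061, limma adjusted p = 1.72e-09), or 46.7-fold. Its close relative Adamts7 had 6.99, 6.63 and 6.83 in rat ES cells, against 7.09, 7.01 and 6.71 in rat fibroblasts. The Adamts7 groups overlapped, with a difference of -0.12 (SE 0.13, limma adjusted p = 0.477). Adamts19, another ADAMTS protease, had -0.35 (adjusted p = 0.0153) and was not called.

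Of the 5 proteoglycanases, Adamts1, Adamts9 and Adamts5 fell. Adamts1, which cuts versican and aggrecan, had log2 signals of 5.56, 5.56 and 5.61 in rat ES cells, against 10.48, 10.54 and 10.48 in rat fibroblasts, a difference of -4.92 (SE 0.063, limma adjusted p = 1.72e-09). Adamts9, a versicanase, had 5.20, 5.35 and 5.47 in rat ES cells, against 7.55, 7.76 and 7.71 in rat fibroblasts, a difference of -2.34 (SE 0.093, limma adjusted p = 1.29e-07). Adamts5, the main aggrecanase of mouse cartilage, had 4.39, 4.66 and 5.14 in rat ES cells, against 6.81, 7.05 and 7.06 in rat fibroblasts, a difference of -2.24 (SE 0.18, limma adjusted p = 7.08e-06). None of these 3 genes had overlapping groups, and all 3 lay below the array medians in rat ES cells. Adamts1 and Adamts5 are neighbours on rat chromosome 11. Adamts15, at -0.68 (SE 0.16, adjusted p = 0.00675), and Adamts4, at -0.21 (SE 0.099, adjusted p = 0.106), were not called.

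The procollagen N-propeptidases remove the amino-terminal propeptide of fibrillar procollagens. Adamts2 had log2 signals of 6.10, 5.99 and 6.19 in rat ES cells, against 7.81, 7.80 and 7.91 in rat fibroblasts, and fell by 1.75 (SE 0.076, limma adjusted p = 2.14e-07). Adamts14 had 5.51, 5.66 and 5.89 in rat ES cells, against 7.09, 7.18 and 7.22 in rat fibroblasts, and fell by 1.48 (SE 0.10, limma adjusted p = 3.46e-06). Both had groups without overlap. Adamts3, which in mice also serves lymphatic growth by activating a vascular growth factor, had -0.52 (SE 0.12, adjusted p = 0.0060) and was not called. Its other rat probe set gave -0.10.

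Adamtsl3 and Adamtsl4 fell among the ADAMTS-like genes. Adamtsl3 had log2 signals of 4.81, 5.03 and 4.73 in rat ES cells, against 9.33, 9.27 and 9.17 in rat fibroblasts, a difference of -4.40 (SE 0.093, limma adjusted p = 6.10e-09). Adamtsl4, which binds fibrillin microfibrils, had 6.0, 6.08 and 6.30 in rat ES cells, against 7.79, 7.77 and 7.81 in rat fibroblasts, a difference of -1.67 (SE 0.088, limma adjusted p = 6.58e-07). The groups of both genes did not overlap. Saxo2, which overlaps Adamtsl3 in the rat annotation, had a difference of -0.10 (limma adjusted p = 0.395). Adamtsl5 had 6.34, 6.27 and 6.70 in rat ES cells, against 7.16, 7.10 and 7.17 in rat fibroblasts, which did not overlap either. Its difference of -0.71 (SE 0.11, adjusted p = 6.42e-04) missed the fold threshold, as did that of Mmp28, a secreted MMP, at -0.83 (SE 0.094, adjusted p = 7.50e-05).

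The 4 largest decreases among members with a promoter window in the table were those of Adamts12, Adamts1, Timp2 and Adamtsl3, and their 250 bases before the start are printed to show which core motifs each holds. Capitals mark matches on either strand to AP-1, TATA, the CAAT box (CCAAT or ATTGG), the GC box (GGGCGG or CCGCCC) and ETS (AGGAAG or CTTCCT). The windows in GRCr8 are chr2:61759737-61759986 on the plus strand for Adamts12, chr11:38427385-38427634 on the minus strand for Adamts1, chr10:104089215-104089464 on the minus strand for Timp2 and chr1:145697754-145698003 on the plus strand for Adamtsl3.
Adamts12: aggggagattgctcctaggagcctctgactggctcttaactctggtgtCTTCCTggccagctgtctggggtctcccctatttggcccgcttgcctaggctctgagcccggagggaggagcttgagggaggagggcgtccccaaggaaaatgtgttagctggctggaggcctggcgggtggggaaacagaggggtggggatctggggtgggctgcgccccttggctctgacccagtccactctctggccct
Adamts1: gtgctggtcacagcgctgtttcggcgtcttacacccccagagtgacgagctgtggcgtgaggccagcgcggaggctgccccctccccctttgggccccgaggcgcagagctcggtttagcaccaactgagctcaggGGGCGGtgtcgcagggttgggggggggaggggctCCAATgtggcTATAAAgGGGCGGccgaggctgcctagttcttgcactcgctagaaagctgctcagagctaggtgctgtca
Timp2: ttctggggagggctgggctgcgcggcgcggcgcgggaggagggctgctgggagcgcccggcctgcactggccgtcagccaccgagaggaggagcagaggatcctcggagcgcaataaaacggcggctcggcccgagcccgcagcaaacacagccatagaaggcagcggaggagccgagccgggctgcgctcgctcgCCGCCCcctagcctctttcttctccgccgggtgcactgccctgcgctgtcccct
Adamtsl3: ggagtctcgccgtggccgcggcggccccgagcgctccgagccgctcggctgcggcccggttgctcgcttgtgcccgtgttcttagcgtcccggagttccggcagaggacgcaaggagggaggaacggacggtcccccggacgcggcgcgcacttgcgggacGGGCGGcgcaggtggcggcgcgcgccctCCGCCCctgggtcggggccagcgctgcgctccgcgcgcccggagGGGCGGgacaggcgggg
Adamts1 held TATA box and CAAT box letters with GC boxes, Timp2 and Adamtsl3 held GC boxes alone, and Adamts12 held ETS letters alone. The GC box was in 30.5%, the CAAT box in 34.0% and ETS in 29.5% of all 33469 windows. Among 12 called members with a window the GC box was in 10, with a median GC content of 69.0%, and among 18 members that were not called it was in 5, with a median of 49.4%. Over all windows the median GC content was 51.2% and the part of GC content in these matches was not tested.

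The called members varied more between rat ES arrays than between fibroblast arrays. The SD was larger in rat ES cells for 15 of the 17, against 27 of all 39 members and 52.9% of all rat genes. The median SD of the 17 was 0.16 in rat ES cells and 0.066 in rat fibroblasts. The called members were selected as lower in rat ES cells, and the part of signal level in this SD difference was not tested. Rat ES array 3 was the highest of the 3 rat ES arrays for 11 of the 17, against 38.9% of all rat genes, and array 3 minus array 1 had a median of 0.21, against 0.022 over all genes. Array 3 was above array 1 for 12 of the 17 called members, against 8014 of all 14506 rat genes. For Mmp11, Mmp16 and Adamtsl3 it was instead the lowest rat ES array. Among the fibroblast markers array 3 was above array 1 for 12 of 12, with a median of 0.25. All 17 members remained called when any single array was left out.

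Mouse ES cells were compared with the rat cells only as percentiles within each array among the 12114 symbols named on both arrays. Species, platform and strain differ, so no test was possible. Medium differs as well between mouse ES and rat ES cells, and these cannot be told apart in the percentile gaps. Over the 36 shared members the median percentile was 31.2 in mouse ES cells, 28.5 in rat ES cells and 48.8 in rat fibroblasts. Member by member, 21 of the 36 stood lower and 15 higher in mouse ES than in rat ES cells, with a median difference of -3.02 points, against 0.33 over all shared symbols. Of the 36, 5 lay above the 50th percentile in mouse ES cells, 6 in rat ES cells and 18 in rat fibroblasts, and 3 lay above it in both kinds of ES cell. The percentile was within 10 points between mouse ES and rat ES cells for 21 of the 36, and the median size of the difference was 7.77 points, against 8.63 over all shared symbols. On the mouse arrays 31 of 49 members had identical values on all 3 arrays, as did 54.4% of all mouse genes, so no SD over them is given. Whether the 3 mouse arrays are independent measurements was not settled, and their values are read here as 1 level per gene.

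Of the 36 shared members, 18 were below the 50th percentile in all 3 groups, a share that was not counted over all shared symbols. Adamts12 and Adamts1 were low in the ES cells of both species. Adamts12 averaged the 15.1 percentile in mouse ES cells, 27.6 in rat ES cells and 97.7 in rat fibroblasts. Adamts1 averaged 29.9 in mouse ES cells, 33.5 in rat ES cells and 96.9 in rat fibroblasts. Mmp2 and Mmp14 were above the middle in both kinds of ES cell, Mmp2 at 70.3 in mouse ES and 76.4 in rat ES cells, and Mmp14 at 75.4 in mouse ES and 86.5 in rat ES cells.

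The TIMPs stood lower in mouse ES cells than in rat ES cells. Timp1 was at the 60.9, 60.9 and 60.8 percentile in mouse ES cells, 95.7, 94.8 and 95.6 in rat ES cells, and 99.3 on each fibroblast array. Timp3 was at 37.6, 37.2 and 37.8 in mouse ES cells, 61.2, 71.5 and 75.4 in rat ES cells, and 76.2, 75.6 and 77.1 in rat fibroblasts. Timp4 was at 5.35, 5.17 and 5.37 in mouse ES cells, 32.5, 35.6 and 36 in rat ES cells, and 25.5, 29.9 and 31.3 in rat fibroblasts. For these 3 inhibitors the mouse ES level lay below every rat array. Timp3 and Adamts4 carry the same mouse log2 value of 5.16 on all 3 arrays. Timp2 averaged 41.3 in mouse ES cells, 51.7 in rat ES cells and 98.7 in rat fibroblasts. Adamtsl3 was the fourth member with a large gap of this direction, at 4.15 in mouse ES cells, 20.8 in rat ES cells and 89.7 in rat fibroblasts.

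The largest gaps in the other direction were those of Adamts9, Mmp11, Adamts3 and Adamts4. Adamts9 was at the 68.4, 69.6 and 68.2 percentile in mouse ES cells, 27.1, 29.6 and 31.1 in rat ES cells, and 65.3, 68.6 and 68.3 in rat fibroblasts. Mmp11 was at 77.0, 78.4 and 76.7 in mouse ES cells, 47.1, 46.7 and 40.0 in rat ES cells, and 65.7, 64.2 and 66.9 in rat fibroblasts. The percentile of Mmp11 was higher in mouse ES cells and lower in rat ES cells than in rat fibroblasts. Adamts4 averaged 37.5 in mouse ES cells, 22.1 in rat ES cells and 24.6 in rat fibroblasts. Adamts3 averaged 41.7 in mouse ES cells and 23.0 in rat ES cells, but this turned to 14.4 in mouse ES and 20.6 in rat ES cells when its 16 mouse probe sets were averaged, and Adamts9 with its 6 mouse probe sets moved to 55.8 in mouse ES cells, 29.4 in rat ES cells and 67.8 in rat fibroblasts.

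**Figure D4:**
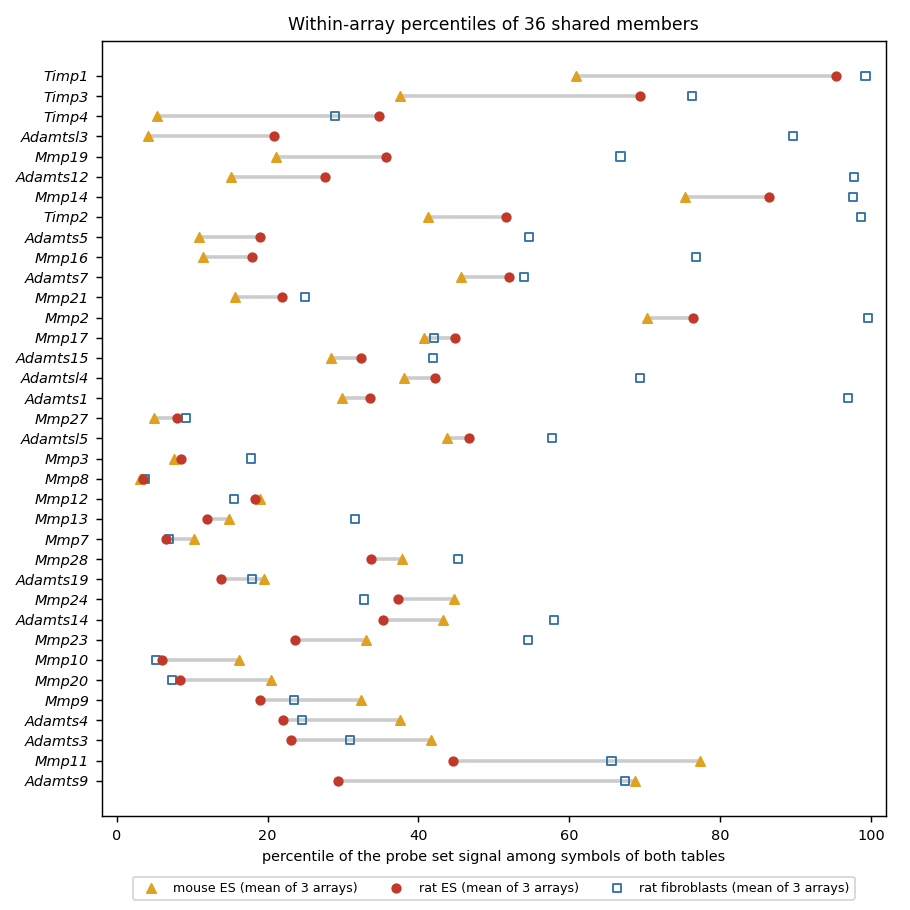
Mean percentile within each array among 12114 shared symbols, over 3 arrays per group, for the 36 shared members in mouse ES cells (triangles), rat ES cells (circles) and rat fibroblasts (squares). Timp1 stands at 60.9, 95.4 and 99.3 in that order, and Adamts9 at 68.7, 29.3 and 67.4.

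Of the 13 members named on the mouse array alone, 7 lay below the array medians. So did 25 of all 49 mouse members and 8185 of all 19938 mouse genes. Adamts17, a secreted protease linked to short stature and lens disease in humans, had log2 signals of 7.35, 7.42 and 7.35 in mouse ES cells, and Mmp25, a membrane-type MMP of neutrophils, had 7.07 on each of the 3 arrays. Among all 19938 mouse genes these stood at the 81.6 and 77.8 percentile. The 5 mouse probe sets of Adamts17 ranged from 3.47 to 7.37, so its rank rests on the brightest one. The mouse collagenases Mmp1a and Mmp1b had 2.51 and 2.55 on each array, at the 4.02 and 4.53 percentile.

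Genes that work with these proteases were followed in the rat comparison as lists. Of 17 matrix substrates measured, 11 were lower in rat ES cells and 0 higher, with a median difference of -3.75. At an unadjusted p under 0.05 in limma also 0 were higher. Col1a1, Col1a2, Col3a1, Dcn and Fn1 of this list are fibroblast markers as well, so it is not separate from the marker list. Fibrillin-1 (Fbn1) had log2 signals of 6.02, 6.47 and 6.72 in rat ES cells, against 12.18, 12.19 and 12.20 in rat fibroblasts, a difference of -5.79. Biglycan (Bgn) had 6.77, 7.35 and 7.69 in rat ES cells, against 12.63, 12.66 and 12.68 in rat fibroblasts, a difference of -5.38. The groups of both did not overlap. Col1a2, a chain of type I collagen, had 8.60, 9.0 and 9.34 in rat ES cells against 13.58, 13.51 and 13.63 in rat fibroblasts, and fell by 4.59. Vcan, the proteoglycan versican, fell by 4.46, and Acan, the proteoglycan aggrecan, fell by 3.51. Both are known substrates of ADAMTS proteases. Fibronectin (Fn1) had a difference of -0.86 and Comp, the substrate of Adamts12, one of -0.27, and neither was called. With quantile normalization the difference of Fn1 was -1.10 and it was called.

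Of 10 other inhibitors and cofactors, 4 were lower and 1 was higher. Pcolce, which enhances procollagen processing, had 7.62, 7.58 and 7.55 in rat ES cells against 11.94, 11.88 and 11.92 in rat fibroblasts, and fell by 4.33. Lrp1, an endocytic receptor that clears proteases and inhibitors, had 6.19, 6.45 and 6.58 in rat ES cells against 10.65, 10.70 and 10.65 in rat fibroblasts, and fell by 4.25. Cd44, a hyaluronan receptor, had 4.92, 4.56 and 4.61 in rat ES cells against 8.0, 8.07 and 7.98 in rat fibroblasts, and fell by 3.32. The groups of these 3 genes did not overlap. Reck, a membrane-anchored MMP inhibitor, fell by 1.23. A2m, a protease inhibitor of broad range, was 2.44 higher, at 8.17, 8.14 and 7.86 in rat ES cells against 5.55, 5.69 and 5.61 in rat fibroblasts. Its groups did not overlap, and it was the 1 gene of that list called higher.

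Of 7 genes of the plasminogen system, whose product plasmin can activate MMP precursors, 3 were lower and 0 higher, with 0 higher also at an unadjusted p under 0.05 in limma. Plat, tissue plasminogen activator, had 6.05, 6.17 and 6.40 in rat ES cells against 9.21, 9.18 and 9.12 in rat fibroblasts, and fell by 2.96. Serpine2, an inhibitor of serine proteases, had 5.82, 5.91 and 5.76 in rat ES cells against 7.68, 7.90 and 7.64 in rat fibroblasts, and fell by 1.91. Plaur, the urokinase receptor, had 7.18, 7.24 and 7.36 in rat ES cells against 8.68, 8.77 and 8.75 in rat fibroblasts, and fell by 1.48. None of these 3 genes had overlapping groups.

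Of 7 proprotein convertases, which cut the precursors of membrane-type MMPs and ADAMTS proteases, 3 were lower and 0 higher, again with 0 higher at an unadjusted p under 0.05 in limma. Pcsk5 had 5.33, 5.30 and 5.04 in rat ES cells against 7.13, 6.73 and 6.53 in rat fibroblasts, and fell by 1.58. Pcsk6 had 7.18, 7.02 and 6.95 in rat ES cells against 8.33, 8.28 and 8.16 in rat fibroblasts, and fell by 1.20. Furin had 8.57, 8.69 and 8.60 in rat ES cells against 9.63, 9.77 and 9.61 in rat fibroblasts, and fell by 1.05. The groups did not overlap for any of the 3 convertases. Without rat fibroblast array 2 the difference of Furin was -0.997, just short of the 2-fold threshold, and 2 convertases were called.

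Of 9 ADAM sheddases and astacins, 2 were lower and 1 was higher. Tll1, an astacin related to Bmp1, had 4.41, 4.79 and 4.09 in rat ES cells against 9.38, 9.51 and 9.32 in rat fibroblasts, and fell by 4.97. Bmp1, which removes the carboxy-terminal propeptide of procollagens, had 7.42, 7.59 and 7.64 in rat ES cells against 9.09, 9.09 and 9.18 in rat fibroblasts, and fell by 1.57. Adam9, a sheddase, was 1.47 higher, at 9.74, 9.54 and 9.51 in rat ES cells against 8.23, 8.15 and 7.99 in rat fibroblasts. All 3 had groups without overlap.

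Of 12 AP-1, ETS and Runx factors, 5 were lower and 2 higher. Runx1 had 6.71, 6.91 and 7.01 in rat ES cells against 10.06, 10.03 and 10.00 in rat fibroblasts, and fell by 3.15. Jun, an AP-1 subunit, had 5.63, 6.53 and 6.61 in rat ES cells against 8.32, 8.40 and 8.47 in rat fibroblasts, and fell by 2.14. Junb, another AP-1 subunit, had 6.39, 5.88 and 6.28 in rat ES cells against 8.01, 8.25 and 7.83 in rat fibroblasts, and fell by 1.85. The groups of these 3 genes did not overlap, and rat ES array 1 was the lowest for Runx1 and Jun. Fosl2 fell by 1.70 and Fos fell by 1.10, while the ETS factors Etv5 and Etv4 were 1.76 and 1.62 higher. Without rat ES array 2 the difference of Fos was -0.99, and 4 factors were called lower. Each of these lists is read against 10.1% of all rat genes lower and 10.6% higher.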

How the data were processed

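Biotin-labelled DNA from total RNA was hybridised with 1 sample per array, per the labels. The log2 values per probe set deposited by the authors form 2 tables, one of 6 rat arrays and one of 3 mouse arrays. The log2 scale was read from the range of the values. No source used here gives their background correction, normalization or probe summary. Because the tables were normalized apart, levels were tested only within the rat table, with no further normalization and no filter on level. The number of arrays limits the precision.

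Names came from the platform annotation, which may be outdated. A single symbol was listed for 15310 of 29215 rat and 21789 of 35557 mouse probe sets, and 0 probe sets with several symbols named a member. The rat groups were compared by limma 3.58.1 (R 4.3.3, lmFit then eBayes, with group as the single term) over 14506 genes, with Benjamini-Hochberg adjustment. Calls needed an adjusted p below 0.05 and 2-fold or more. The fit was tested on simulated data. Percentiles, promoter searches and figures used Python 3.11.15, pandas 2.3.3, numpy 2.4.6, scipy 1.17.1 and matplotlib 3.10.9. Promoter windows came from the RefSeq table of GRCr8 and matched 30 of 39 rat members.

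The members and lists were chosen with earlier results of these data known. Values by array are given for the called members with the 8 largest and 8 smallest differences, every TIMP, up to 4 shared members in each direction with the largest percentile gap between mouse ES and rat ES cells, and up to 3 called genes of each other list. Other named genes were picked after their values were seen. Alternatives covered normalization, level filters, probe set choice, eBayes settings, thresholds, a replicate block and the omission of each array.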

Additional observations from a re-analysis of the deposited data

How the results depend on the processing

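The 17 members called lower were also 17 under quantile normalization, median centring and eBayes with trend and robust settings. The count was 17 as well at an adjusted p under 0.01 and with any 1 array left out. A filter at the median of the mean level over both rat groups left 17 members to test, and 14 were called. Of the 17 called without it, Adamts5, Mmp13 and Mmp23 were not tested. Members high in fibroblasts alone can pass this filter, so the 14 calls are no further support. Without a filter, a log2 difference of at least 2 left 8 members called lower. Without a fold threshold 1 member was higher, and over all rat genes 4478 were higher and 3694 lower, against 378 higher and 617 lower at a log2 difference of at least 2. The median log2 difference of members was -1.38 when genes under the 25th percentile of mean level were dropped, which left 30 members. It was -1.76 when those under the median were dropped, which left 17. Level was again the mean over both rat groups, so members bright in fibroblasts alone stay. The larger medians may thus follow from the filters themselves. With percentiles among all named genes of a table the median percentile became 42.3 in mouse ES cells, 35.6 in rat ES cells and 54.3 in rat fibroblasts. In that setting 29 of 36 members kept their direction between mouse ES and rat ES cells. The 7 that turned were Mmp17, Adamts15, Adamtsl4, Adamts1, Adamtsl5, Mmp3 and Mmp8. All 7 went from lower to higher in mouse ES cells, so most members were then higher there. With the mean of all probe sets the median percentile was 29.6 in mouse ES cells, and 35 of 36 members kept their direction.

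Replicate numbers did not pair the rat groups. Deviations of same-numbered arrays correlated at -0.00044, 0.031 and -0.000296, and 2 of 6 arrays correlated best with their own number. With the replicate number as a block, 17 members were lower and 0 higher in limma. Without a fold threshold the block turned Mmp24 to an adjusted p of 0.0854 and Timp4 to 0.0184. Signals below the array medians limit the fold sizes of dim members, and genes that overlap others in the annotation may share signal.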
